A study of Mus musculus with 7 samples.

Results

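The protamines and transition proteins are the small nuclear proteins, with 1 cytoplasmic relative, that mark the last steps of sperm formation, and their RNAs were read here in mouse sperm on 7 expression arrays. The members were the probe sets that the platform annotation assigns to Prm1, Prm2, Prm3, Tnp1 or Tnp2, which gave 5 of 23935 genes named on the array, each with 1 of 33604 probe sets. Those of Tnp1, Tnp2, Prm1 and Prm3 named 1 gene each. The fifth named both Prm2 and Wdr19, an intraflagellar transport gene, so its signal cannot be assigned to either and it is called the Prm2/Wdr19 probe set here.

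The TG3 group was sperm of males that carried a KDM1A transgene, a histone lysine demethylase construct injected into C57BL/6 zygotes and passed on for 3 generations by heterozygous males mated to C57BL/6 females, from 2 founder females. The nonTG3 group was sperm of littermates from the same matings that had not inherited the construct, and the third group was sperm of C57BL/6 mice. TG3 and nonTG3 had 3 arrays each, every one made from the pooled RNA of 4 males, and C57BL/6 had 1 array from a pool of 5 males. TG3 and nonTG3 together are called the line, with 6 arrays. The labels used here give neither the promoter that drives the transgene nor the males' ages, nor whether the same male could be part of several pools, and p-values therefore cover only differences among the pools.

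During spermatid elongation histones are evicted from DNA, the transition proteins Tnp1 and Tnp2 take their place for a short time, and the arginine-rich protamines Prm1 and Prm2 then pack the DNA into a compact, silent state. Prm2 is made as a precursor that is trimmed after it binds DNA. Prm3 lies in the same gene cluster as Prm1, Prm2 and Tnp2, but in mouse its product is an acidic protein found in the cytoplasm. The RNAs are transcribed in round spermatids, stored without being translated and used days later, and some remain in mature sperm, which are silent in transcription. The transcription factor CREM, which binds cyclic AMP response elements, is known to drive several of these genes in mouse spermatids.

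The promoter windows of all 5 genes are shown because only some of their RNAs passed the test of change below C57BL/6, although 4 of the genes are neighbours. The sequences are RefSeq's for build GRCm38.p6, 250 bases before and 50 bases from the annotated start, 5′ to 3′ on the gene's strand. Capitals mark the cyclic AMP response element-like motif TGANNTCA and the TATA-like motif TATANA, both searched on either strand.
Tnp1 (chr1:73015850-73016149, minus strand): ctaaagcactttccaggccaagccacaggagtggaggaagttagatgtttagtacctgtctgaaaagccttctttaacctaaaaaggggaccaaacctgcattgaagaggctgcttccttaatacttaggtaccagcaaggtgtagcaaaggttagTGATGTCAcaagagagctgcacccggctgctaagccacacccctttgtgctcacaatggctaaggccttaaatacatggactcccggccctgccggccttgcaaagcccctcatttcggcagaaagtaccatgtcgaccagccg
Prm1 (chr16:10796774-10797073, minus strand): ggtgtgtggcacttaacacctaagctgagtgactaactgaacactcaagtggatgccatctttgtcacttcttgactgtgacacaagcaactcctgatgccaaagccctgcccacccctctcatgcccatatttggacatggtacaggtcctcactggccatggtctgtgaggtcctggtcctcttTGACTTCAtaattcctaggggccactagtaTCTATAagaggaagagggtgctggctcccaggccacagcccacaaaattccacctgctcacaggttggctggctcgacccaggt
Prm3 (chr16:10790865-10791164, minus strand): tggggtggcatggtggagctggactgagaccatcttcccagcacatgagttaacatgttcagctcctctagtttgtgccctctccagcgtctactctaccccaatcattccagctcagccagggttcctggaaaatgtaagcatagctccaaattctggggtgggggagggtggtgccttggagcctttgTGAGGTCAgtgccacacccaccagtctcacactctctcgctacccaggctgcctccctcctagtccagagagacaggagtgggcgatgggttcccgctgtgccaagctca
Tnp2 (chr16:10788606-10788905, minus strand): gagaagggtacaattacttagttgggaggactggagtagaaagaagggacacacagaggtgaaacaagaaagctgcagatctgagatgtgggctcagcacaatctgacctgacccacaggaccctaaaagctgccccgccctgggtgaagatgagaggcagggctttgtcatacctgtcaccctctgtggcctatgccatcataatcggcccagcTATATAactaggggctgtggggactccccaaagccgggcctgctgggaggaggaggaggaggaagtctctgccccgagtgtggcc
Prm2 (chr16:10792056-10792355, minus strand): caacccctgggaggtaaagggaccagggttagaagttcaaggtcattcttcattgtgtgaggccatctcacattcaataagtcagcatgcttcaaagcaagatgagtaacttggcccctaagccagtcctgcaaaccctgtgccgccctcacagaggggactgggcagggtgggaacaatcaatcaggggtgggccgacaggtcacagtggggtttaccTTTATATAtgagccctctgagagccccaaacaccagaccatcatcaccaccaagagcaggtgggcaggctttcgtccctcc
The motif TGANNTCA occurred once in the Tnp1 window as TGATGTCA, with its first base at position -94 relative to the start, once in Prm1 as TGACTTCA, at -64, and once in Prm3 as TGAGGTCA, at -60. It was not in the Tnp2 or Prm2 window, and 14.1% of 32851 promoter windows of the same length held it. This relaxed form was chosen after the windows had been read. Which windows hold it is therefore no test of a link with the RNA changes. The exact element TGACGTCA was in 1.79% of the windows and in 0 of these 5. TATANA was present in the Tnp2, Prm1 and Prm2 windows and in 24.7% of all windows, where overlapping matches on both strands were counted as 1 window. CCAAT was found in the Prm3 window alone among the 5 and in 37.4% of all windows. The GC box GGGCGG was in the Tnp2 and Prm2 windows and in 35.7% of all. A match of letters does not show that a factor binds.

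The unit throughout is log2 RMA intensity as the authors deposited it, so 1 unit is a 2-fold difference, and the levels of different probe sets are not set against each other. The arrays had medians of 3.52 to 3.61 and highest values of 12.97 to 13.23. Kdm1a read 5.20 ± 0.12 (SD, n = 3) in TG3, 5.20 ± 0.12 (SD, n = 3) in nonTG3 and 5.64 on the C57BL/6 array, and whether its probe set reads the transgene is not stated in the labels. The labelled cell type was checked on late spermatid and sperm RNAs, 31 in all, with 9 called lower in the line and a median change of -0.49. Of the 31, 27 had a change below 0, and 2.85% of all tested probe sets were called lower. Chosen after their values were seen, 2 that are defining for sperm are described here, and both had changes near 0. They do not stand for the list: Oaz3 changed by -0.03, Gapdhs by -0.34 and Akap4 by -0.97, none of them called. Smcp, which encodes a mitochondrial sheath protein, averaged 11.80 ± 0.20 (SD, n = 6) in the line against 11.88 in C57BL/6, and Odf1, an outer dense fibre protein, averaged 11.51 ± 0.33 (SD, n = 6) in the line against 11.55 in C57BL/6. The mean of 10 mitochondrially encoded genes was 8.80, 11.44 and 11.51 on the TG3 arrays, 11.55, 9.98 and 8.91 on the nonTG3 arrays and 11.24 on C57BL/6. TG3 replicate 1 and nonTG3 replicate 3 were thus the lowest, with nonTG3 replicate 2 between them and the other arrays. Of these 10 genes limma called 0 between the line and C57BL/6, with a median change of -0.90.

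Tnp1, Prm1 and Prm3 RNA read lower in the sperm samples of the line than in the C57BL/6 pool. The Tnp2 and Prm2/Wdr19 probe sets did not pass the test. Tnp1 was 7.38-fold lower in the line, Prm3 3.12-fold lower and Prm1 2.72-fold lower. These 3 of 5 probe sets were called lower at an adjusted p under 0.05, where 2.85% of the 23493 probe sets with 1 gene symbol were. The test was limma on all 7 arrays with Benjamini-Hochberg adjustment over all probe sets. The C57BL/6 group has no replicates, so the spread behind these p-values comes from the line alone. In such pooled samples, fewer sperm carrying an RNA, less RNA per sperm and RNA from other cells in a pool cannot be told apart. RNAs that mark other testis cells, given below, also read lower in part in the line.

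**Figure D1:**
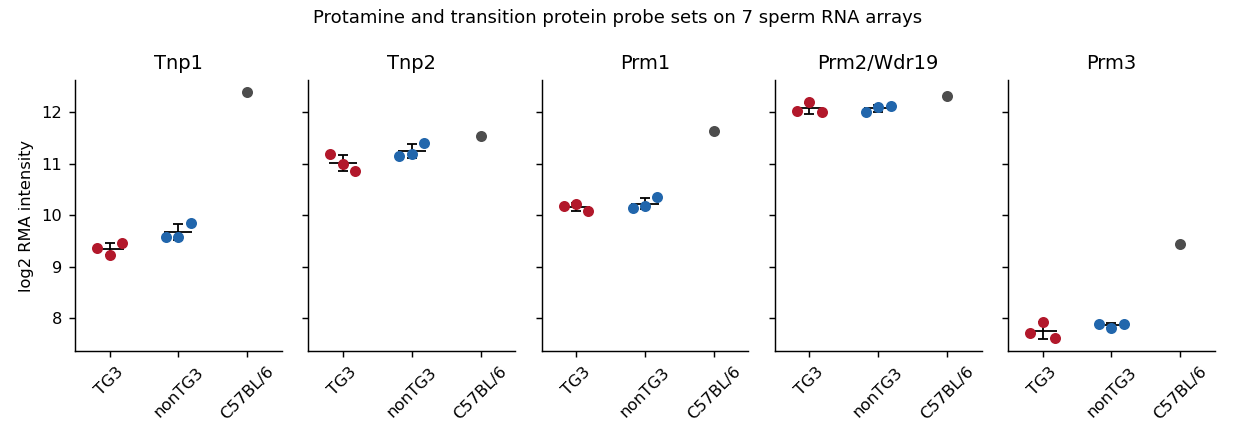
Log2 RMA intensity of the 5 probe sets on each array (points), with mean and SD for TG3 and nonTG3 (n = 3 each) and the single C57BL/6 array. For Tnp1, Prm1 and Prm3 all 6 line arrays lie more than 1 log2 unit below C57BL/6, and for Tnp2 and Prm2/Wdr19 the 3 groups lie close together.

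Tnp1, the transition protein whose RNA is abundant in spermatids, read 9.37, 9.23 and 9.46 on the TG3 arrays, 9.58, 9.58 and 9.85 on the nonTG3 arrays and 12.40 on the C57BL/6 array. Every line array lay at least 2.54 log2 units below C57BL/6. The TG3 arrays all lay below the nonTG3 arrays, as was the case for 1.65% of all tested probe sets. The change in the line was -2.88 (SE 0.15, limma adjusted p = 0.00218). Only 45 of 23493 tested probe sets had a larger decrease.

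Tnp2, the other transition protein, read 11.18, 11.01 and 10.86 in TG3, 11.16, 11.18 and 11.41 in nonTG3 and 11.55 in C57BL/6. All 6 line arrays were again below C57BL/6, as was the case for 14.3% of all tested probe sets, but the gap was small and the TG3 and nonTG3 arrays overlapped. The change was -0.42 (SE 0.16) with a 95% interval of -0.82 to -0.01, a 1.34-fold difference with a limma adjusted p of 0.387.

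Prm1, the protamine found across mammals, read 10.18, 10.22 and 10.08 in TG3, 10.15, 10.19 and 10.35 in nonTG3 and 11.64 in C57BL/6. The 6 line arrays spanned 0.27 log2 units, with TG3 and nonTG3 overlapping, and sat 1.29 to 1.55 units below C57BL/6. The change was -1.44 (SE 0.12, limma adjusted p = 0.00535).

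The Prm2/Wdr19 probe set read 12.03, 12.20 and 12.01 in TG3, 12.00, 12.11 and 12.13 in nonTG3 and 12.32 in C57BL/6. It had the smallest SD of the 5 across the line (0.08, n = 6), TG3 and nonTG3 overlapped, and all 6 line arrays lay slightly below C57BL/6, as was the case for 13.1% of all probe sets. Wdr19 also had a probe set of its own, which read 4.42 to 4.58 in TG3, 4.58 to 4.62 in nonTG3 and 4.58 in C57BL/6. The change of the shared probe set was -0.24 (SE 0.12) with a 95% interval of -0.55 to 0.07. Its limma adjusted p was 0.634, taken from the fit over all 33604 probe sets because it names several genes, where 2.32% were called lower.

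Prm3 read 7.72, 7.93 and 7.62 in TG3, 7.89, 7.81 and 7.89 in nonTG3 and 9.45 in C57BL/6. The TG3 and nonTG3 arrays overlapped, and none of the 6 came within 1.5 log2 units of C57BL/6. The change was -1.64 (SE 0.14, limma adjusted p = 0.00564). Of all tested probe sets 371 had a larger decrease, against 493 for Prm1 and 2358 for Tnp2.

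The difference was also fitted for carriers and littermates apart, and both fits share the C57BL/6 array. In TG3 the changes were -3.04 for Tnp1, -0.53 for Tnp2, -1.48 for Prm1, -0.24 for Prm2/Wdr19 and -1.69 for Prm3 (limma adjusted p of 0.00288, 0.286, 0.00703, 0.694 and 0.00727). In nonTG3 they were -2.73, -0.30, -1.41, -0.24 and -1.59 in the same order (limma adjusted p of 0.00357, 0.694, 0.00815, 0.708 and 0.0088). Each comparison thus called Tnp1, Prm1 and Prm3, where 2.41% of probe sets were called lower for TG3 and 2.43% for nonTG3. In a fit on its own arrays and the C57BL/6 array alone, neither group had a member called. With TG3 replicate 1 and nonTG3 replicate 3, the arrays lowest in mitochondrial RNA, both left out, 0 of the 5 were called in any of these 3 comparisons, with 2 residual degrees of freedom and 0 of all 23493 probe sets called for the line. The line changes there were -2.93 for Tnp1, -1.48 for Prm1 and -1.64 for Prm3 (limma adjusted p of 0.0653, 0.0778 and 0.105).

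**Figure D2:**
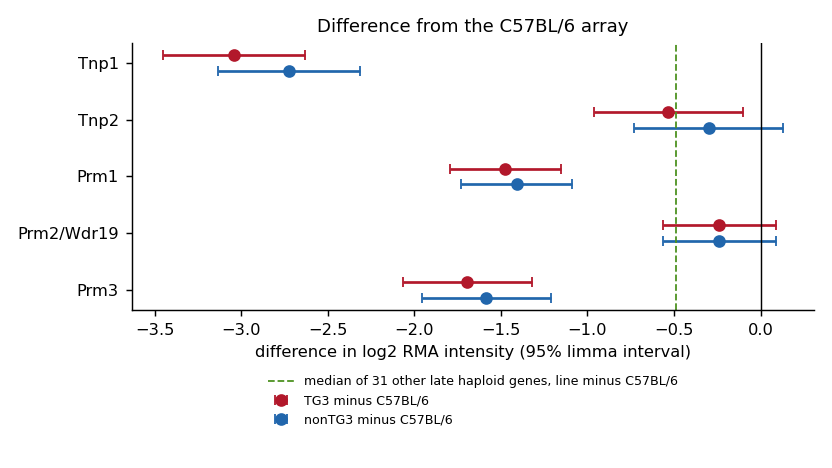
Difference in log2 RMA intensity from the C57BL/6 array for TG3 and nonTG3, with 95% limma intervals, and the median change of 31 other late haploid genes (dashed). The intervals of Tnp1, Prm1 and Prm3 lie left of the dashed line at -0.49, and those of Tnp2 and Prm2/Wdr19 include it.

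Tnp1 and Prm1 are bright probe sets, and as a description their changes were set beside the 172 probe sets with 1 gene symbol whose mean over all 7 arrays was at least 9. The median change of these was 0.23. None of them had a larger decrease than Tnp1, 4 had a larger one than Prm1 and 13 a larger one than Tnp2. The C57BL/6 array enters that mean, so a probe set can be included through its C57BL/6 value, as Fabp9 was with 8.79 ± 0.26 in the line (SD, n = 6) against 11.20 in C57BL/6.

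**Figure D3:**
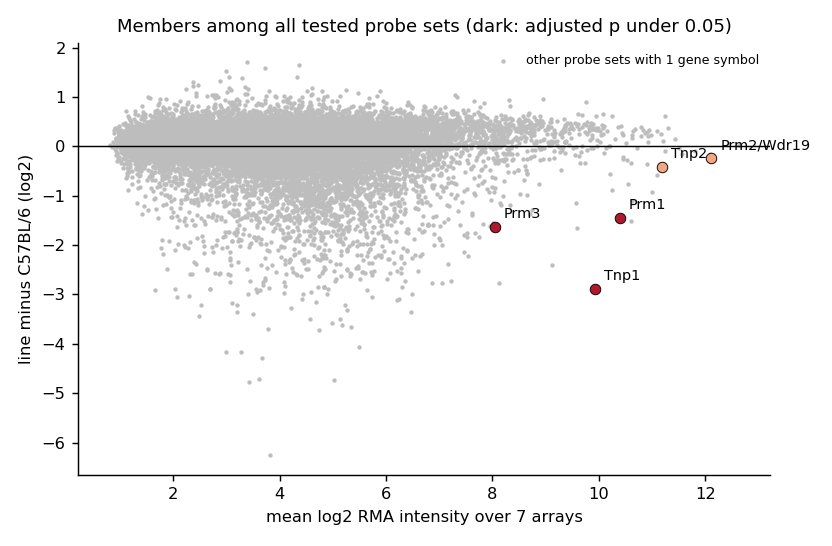
Line minus C57BL/6 in log2 units against the mean level over 7 arrays for the 23493 probe sets with 1 gene symbol (grey) and the members (dark red where the adjusted p was under 0.05, pale otherwise). Tnp1 lies at -2.88, and Tnp2 and Prm2/Wdr19 lie near 0.

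TG3 against nonTG3 asks whether the members differ with the transgene among littermates. No member passed the test, and limma called 0 of 23493 probe sets, or 0.0% (559 had an unadjusted p under 0.05). Tnp1 averaged 9.35 ± 0.12 in TG3 and 9.67 ± 0.16 in nonTG3 (SD, n = 3 each), a difference of -0.32 with a 95% interval of -0.61 to -0.03 and a limma adjusted p of 0.923. It was the only one of the 5 whose groups did not overlap, with TG3 below nonTG3. The same held for 1.65% of all tested probe sets, a share that leaves out those with TG3 above nonTG3. A two-sided exact permutation test gave p = 0.1, the smallest that 3 against 3 allows, and p = 0.5 after adjustment over the 5 probe sets.

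The other members overlapped between TG3 and nonTG3. Tnp2 averaged 11.02 ± 0.16 in TG3 and 11.25 ± 0.14 in nonTG3 (SD, n = 3 each), a difference of -0.23 with an interval of -0.54 to 0.07. The differences of Prm1 and Prm3 were -0.07 (interval -0.29 to 0.16) and -0.11 (interval -0.37 to 0.15). The Prm2/Wdr19 probe set averaged 12.08 in both groups, with an interval of -0.23 to 0.23. Their exact permutation p-values were 0.3, 0.5, 0.4 and 1. Levels thus ran in the order TG3, nonTG3, C57BL/6 from low to high for Tnp1, Tnp2, Prm1 and Prm3, where the step between TG3 and nonTG3 passed no test. The highest reading of the line was on nonTG3 replicate 3 for Tnp1, Tnp2 and Prm1, but on TG3 replicate 2 for Prm2/Wdr19 and Prm3.

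Differences between 2 members on the same array show whether their readings changed unequally, since anything that scales a whole array cancels. Unequal response of 2 probe sets does not cancel. Prm2/Wdr19 read 12.00 to 12.32, where the highest array values were 12.97 to 13.23, and its response at that level was not measured. All 10 pairs were compared. The Tnp1 minus Tnp2 difference was -1.82, -1.78 and -1.40 in TG3, -1.58, -1.61 and -1.56 in nonTG3 and 0.85 in C57BL/6. Its shift between the line and C57BL/6 was -2.47. For the protamines, Prm1 minus Prm2/Wdr19 was -1.85, -1.98 and -1.93 in TG3, -1.85, -1.92 and -1.78 in nonTG3 and -0.68 in C57BL/6. This gap moved by -1.20 with an SD of 0.07 across the 6 line arrays. Prm1 minus Prm3 was 2.38 ± 0.09 in the line (SD, n = 6) against 2.19 in C57BL/6. The 2 smallest shifts of the 10 were -0.18 for Tnp2 minus Prm2/Wdr19, the only one where C57BL/6 fell within the range of the line, and 0.20 for Prm1 minus Prm3. The largest was -2.65 for Tnp1 minus Prm2/Wdr19. No test of these shifts against the single C57BL/6 array was run, and the zero point of each difference has no meaning because the probe sets share no scale.

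The same differences were compared between TG3 and nonTG3. Tnp1 minus Prm1 averaged -0.81 ± 0.19 in TG3 and -0.56 ± 0.06 in nonTG3 (SD, n = 3 each), and these groups did not overlap. Nor did those of Tnp1 minus Prm2/Wdr19, which averaged -2.73 ± 0.22 in TG3 and -2.41 ± 0.13 in nonTG3 (SD, n = 3 each). Both had an exact permutation p of 0.1 and an adjusted p of 0.333 over the 10 pairs. The other 8 pairs overlapped, and Prm1 minus Prm2/Wdr19 differed by -0.07 (exact permutation p = 0.2).

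**Figure D4:**
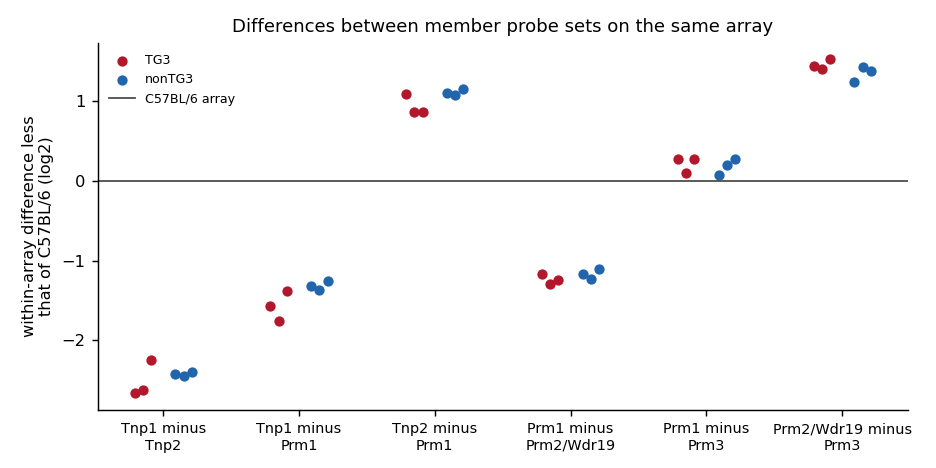
Within-array difference between 2 member probe sets, less the same difference on the C57BL/6 array, in log2 units for 6 of the 10 pairs (Tnp1 minus Tnp2, Tnp1 minus Prm1, Tnp2 minus Prm1, Prm1 minus Prm2/Wdr19, Prm1 minus Prm3 and Prm2/Wdr19 minus Prm3). Among these 6 the points lie farthest from the C57BL/6 line for Tnp1 minus Tnp2 and nearest for Prm1 minus Prm3, and the largest and the smallest shift of all 10, -2.65 and -0.18, belong to pairs not drawn.

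Of the 5 members 4 lie in 1 gene cluster. In RefSeq's gene order Tnp2, Prm3, Prm2 and Prm1 lie side by side on chromosome 16 with 0 other protein-coding genes between them, and Tnp1 lies on chromosome 1. Along the cluster the line changes alternated, at -0.42 for Tnp2, -1.64 for Prm3, -0.24 for Prm2/Wdr19 and -1.44 for Prm1. The 3 nearest coding genes on the Tnp2 side are Socs1, a cytokine signalling inhibitor, Clec16a and Dexi, and their changes were 0.38, -0.03 and 0.07. On the Prm1 side Rmi2, of the Bloom helicase complex, Litaf and Snn changed by -0.03, 0.12 and 0.28. None of these 6 passed the test (limma adjusted p of 0.85 to 1).

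None of the neighbours of Tnp1 was called lower. Igfbp5 and Igfbp2, which bind insulin-like growth factors, and the ribosomal gene Rpl37a had changes of 0.26, 0.38 and 0.17, and on the other side Tns1 and Cxcr2 had 0.31 and 0.05. Of the 12 neighbours only Rufy4 was called, as higher, where 0.17% of all tested probe sets were. It read 3.66 ± 0.10 in TG3, 3.70 ± 0.04 in nonTG3 (SD, n = 3 each) and 3.00 in C57BL/6 (limma adjusted p = 0.0418). These levels lie close to the array medians, and whether they lie above background was not measured. Rmi2 and Litaf had only 2 distinct values each on the 6 line arrays.

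**Figure D5:**
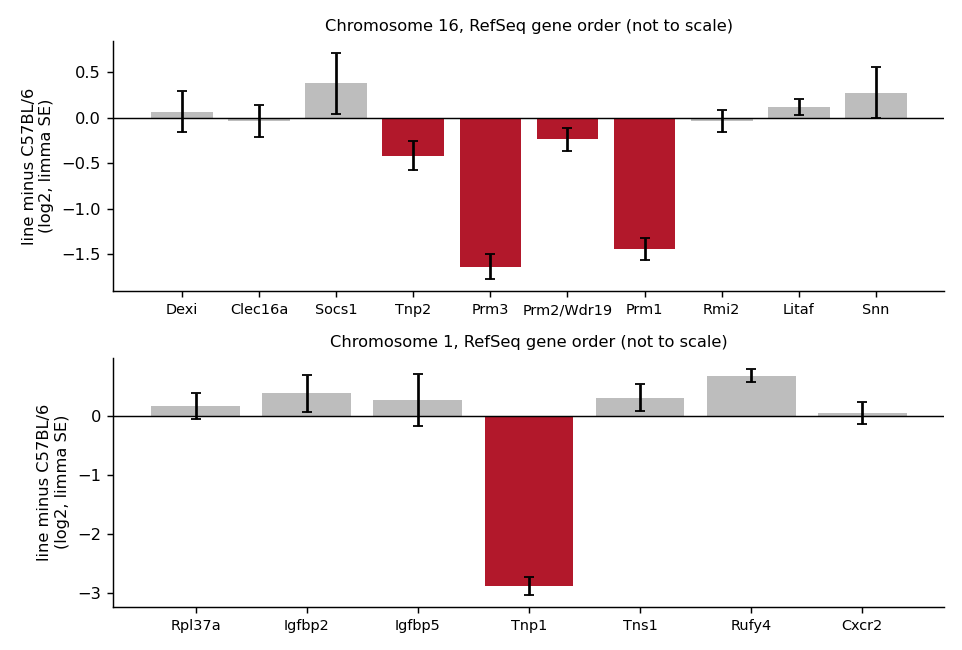
Line minus C57BL/6 in log2 units with limma SE for the members (red) and the 3 nearest coding genes with a probe set on each side (grey), in RefSeq gene order and not to scale. On chromosome 16 the bars of Prm3 and Prm1 reach -1.64 and -1.44 with that of Prm2/Wdr19 at -0.24 between them.

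RNAs of the factors that make, store or activate Prm and Tnp messages were in part lower in the line too. Of 24 known regulators 7 were called lower and 0 higher, with a median change of -0.33, where 2.85% of all tested probe sets were called lower and the median of all was 0.04. Papolb, a testis poly(A) polymerase, read 3.05 ± 0.19 in the line (SD, n = 6) against 5.78 in C57BL/6 (limma adjusted p = 0.00443), and its line values lay below the array medians. Ybx2, a Y-box protein that holds stored spermatid RNAs, fell by 1.20 log2 units and its relative Ybx3 fell by 1.85 log2 units. Tbpl1, a TATA-binding protein relative needed in spermatids, fell by 2.10 log2 units. Crem, chosen after its values were seen, averaged 5.42 ± 0.24 in the line (SD, n = 6) against 5.48 in C57BL/6. Kdm3a, a histone demethylase known to activate Tnp1 and Prm1 in mouse and likewise chosen afterwards, averaged 7.13 ± 0.45 in the line (SD, n = 6) against 6.88 in C57BL/6. Omitting TG3 replicate 1, 2 or 3 gave 3, 3 or 4 calls in place of 7, and omitting nonTG3 replicate 1, 2 or 3 gave 4, 2 or 2. In the same order those fits called 479, 391, 477, 416, 343 and 421 of all 23493 probe sets lower, against 670 with every array. Between TG3 and nonTG3 0 of the 24 were called by limma, with a median change of 0.04.

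Genes that act in the exchange of histones for protamines gave a like count. Of 25 listed genes 22 were measured, and 6 were called lower and 0 higher in the line, with a median of -0.44. Of all tested probe sets 2.85% were called lower. Hspa2, a chaperone of the transition proteins in spermatids, fell by 1.55 log2 units. H1f7, a linker histone of spermatids, fell by 1.20 log2 units, and Brdt, which recognises acetylated histones, fell by 1.14 log2 units. The testis histone H2bc1 averaged 4.34 ± 0.57 in the line (SD, n = 6) against 9.08 in C57BL/6. Here 3, 0 or 3 genes were called when TG3 replicate 1, 2 or 3 was omitted, and 1, 2 or 5 when nonTG3 replicate 1, 2 or 3 was. Over all 23493 probe sets the calls lower went from 670 to 479, 391, 477, 416, 343 and 421 in the same order. Between TG3 and nonTG3 0 were called by limma, with a median of -0.02.

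Of 31 other late haploid genes 9 were called lower in the line and 0 higher, with a median of -0.49, where 2.85% of all tested probe sets were called lower. The changes were -3.06 for Meig1, needed for the manchette of elongating spermatids, -2.58 for Cylc2, a protein of the sperm head skeleton, and -2.85 and -2.73 for the acrosomal genes Spaca1 and Acrv1. When every array was centred on the mean of these 31 genes, all line values moved up by 0.92 against C57BL/6, and 80.8% of probe sets were then called higher and 1.7% lower, so a call on this scale says little about a gene. On that scale the change was -1.97 for Tnp1, -0.72 for Prm3 and -0.52 for Prm1, but 0.50 for Tnp2 and 0.68 for Prm2/Wdr19, the opposite direction to that on the deposited scale. The sign of Tnp2 and Prm2/Wdr19 thus depends on the scale, and on the deposited scale the intervals of both included the median of the late haploid genes.

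RNAs that mark other testis cells were in part lower in the same comparison, where 2.85% of all tested probe sets were called lower. Of 9 measured spermatocyte markers 4 were called lower, with a median change of -1.89, and their summed linear intensity was 175 to 375 in TG3, 277 to 403 in nonTG3 and 640 in C57BL/6. For 5 Leydig cell markers, 3 of them called lower with a median change of -1.02, the sum was 33.6 to 34.6 in TG3, 27.8 to 31.9 in nonTG3 and 147 in C57BL/6, and Cyp11a1 and Hsd3b1 lay below the lowest array median on all arrays. The 10 Sertoli cell markers had a median change of -0.0037, with 5 of 10 below 0 and 2 called lower, Cst9 and Cst12, genes picked out after their values were seen, at -4.72 and -3.43. The sum of all 10 was 318 to 427 in TG3, 206 to 382 in nonTG3 and 557 in C57BL/6, with Rhox5, Dhh, Gata1 and Fshr below the lowest array median throughout. Clu and Cst9 weighed most in the C57BL/6 sum. Clu averaged 7.74 ± 0.52 in the line (SD, n = 6) against 7.88 in C57BL/6, and Cst9 averaged 2.94 ± 0.36 (SD, n = 6) against 7.66. The 9 epididymal epithelium markers had a median change of 0.23 and summed to 684 to 1230 in TG3, 365 to 1315 in nonTG3 and 599 in C57BL/6. Of these 1 was called higher, Lcn8, where 0.17% of all tested probe sets were. Lcn8 and Lcn9 lay below the lowest array median on all arrays. The 9 leukocyte markers, with a median change of 0.16, summed to 851 to 936 in TG3, 407 to 927 in nonTG3 and 622 in C57BL/6, and the 10 fibroblast and muscle markers, with a median change of 0.52, to 341 to 1048 in TG3, 434 to 754 in nonTG3 and 401 in C57BL/6, with 0 called in either list by limma. A linear sum mainly follows its brightest genes. In the leukocyte list this was Cd52, which averaged 9.53 ± 0.06 in TG3 and 8.88 ± 0.71 in nonTG3 (SD, n = 3 each) and read 8.94 in C57BL/6. In the epididymal list it was Adam7, which averaged 9.06 ± 0.44 in TG3 and 8.32 ± 1.35 in nonTG3 (SD, n = 3 each) and read 8.33 in C57BL/6. Ptprc and C1qc of the leukocyte list and Lum of the fibroblast and muscle list also lay below the lowest array median on all arrays. The part of these cells in the differences of the members was not tested.

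The genes whose profile over the 7 arrays was most like that of each member were chosen by the root-mean-square difference between profiles centred on their own means, among genes within 2 log2 units of the member's mean level. For Tnp1 they were Hsbp1, a heat shock factor binding protein, Fabp9 and Prm3, at 0.30, 0.34 and 0.48 log2 units, where the median of 376 candidates was 1.17. Hsbp1 averaged 7.73 ± 0.17 in the line (SD, n = 6) against 10.50 in C57BL/6. For Prm3 they were Adam5, a sperm membrane protein of the ADAM family, H2ap and Tex48, at 0.09, 0.12 and 0.12 against a median of 0.71 over 1753 candidates. For Prm1 they were Fhl4, Lrrc51 and Tnp2, at 0.24, 0.30 and 0.37 against a median of 0.69 over 242. Spem1, a spermatid protein, was nearest to both Tnp2 and Prm2/Wdr19, at 0.16 and 0.11 (medians of 0.38 over 120 and 0.36 over 42 candidates). Next to Spem1 came Hk1 and Rnu12 for Tnp2, and Mir449b and Reep6 for Prm2/Wdr19. The 7 arrays share 1 C57BL/6 pool, which sets most of each profile, so these distances are a description.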

How the data were processed

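Sperm RNA of 7 pools was measured on Affymetrix arrays. The log2 intensities were deposited by the authors after RMA, which corrects background, equalises array distributions and summarises probe sets. R 3.1.0, oligo, RMA and limma are named in the submitters' processing notes. No build is given in the sources used, so coordinates appear for RefSeq promoter windows alone. Precision is limited by the number of arrays.

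In the platform annotation 23493 of 33604 probe sets had 1 gene symbol, 1801 several and 8310 none. One limma 3.58.1 model in R 4.3.3, in which each group has its own mean, covered the 23493 on all 7 arrays, with eBayes (4 residual and 1.65 prior degrees of freedom) and adjusted by Benjamini-Hochberg over them. The Prm2/Wdr19 probe set was taken from the same model over all 33604. Calls are those with adjusted p under 0.05. Exact permutation tests used Python 3.11.15 with scipy 1.17.1, and figures matplotlib 3.10.9. The limma step was tested on simulated data.

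The members and gene lists were chosen with earlier results of these data known. All members are named, with the 4 genes of smallest p in each list described (fewer for marker lists), the 3 nearest coding neighbours on each side and the 3 genes of most similar profile, predicted and clone names left out. A gene with several probe sets was taken from the brightest. The alternatives were other normalizations, a scaling on late haploid genes, eBayes with a trend or a robust prior, array weights, a filter on dim probe sets, all probe sets, a threshold of 0.01, single arrays or both arrays of lowest mitochondrial RNA left out, fits on fewer groups, and a block for replicate number.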

Additional observations from a re-analysis of the deposited data

How the results depend on the processing

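The count of members called lower against C57BL/6 stayed at 3 in each fit without 1 array of the line, for the line, TG3 and nonTG3 alike. It became 0 in all 3 comparisons when both low-mitochondrial arrays (TG3 replicate 1, nonTG3 replicate 3) were dropped. It was also 0 for TG3 when nonTG3 was left out of the fit, where 0 of 23493 probe sets were called. For nonTG3 it was 0 when TG3 was left out, where 54 of 23493 probe sets were called lower. All these settings leave fewer arrays to estimate the spread. Leaving out 1 array gave line changes of -2.93 to -2.85 for Tnp1, -1.47 to -1.42 for Prm1 and -1.68 to -1.61 for Prm3. Prm1 had an adjusted p of 0.0574 in TG3 and 0.0678 in nonTG3 with an eBayes trend, and of 0.0513 and 0.0802 after centring on late haploid genes. With this centring the change of Tnp2 turned to 0.50 in the line, 0.38 in TG3 and 0.62 in nonTG3, and that of Prm2/Wdr19 turned to 0.68 in all 3; the scale itself was moved by 0.92.

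Between TG3 and nonTG3 0 members were called under any of the 19 alternatives. These fits called 0 of all their probe sets as well, so this count says nothing about the members in particular. The threshold of 0.01 could not have added a call. The fit on the TG3 and nonTG3 arrays alone repeated the main one, with a smallest limma adjusted p of 0.923 in both. With cyclic loess the differences turned to 0.12 for Prm1, 0.22 for Prm2/Wdr19 and 0.025 for Prm3. The Prm2/Wdr19 difference, near 0, also turned to 0.035 with array weights and to 0.051 without both low-mitochondrial arrays, and ran from -0.062 to 0.035 without single arrays. Of the within-array differences, Tnp1 minus Tnp2 turned to 0.11 with repeated quantile normalization and 0.0047 without those arrays. Prm1 minus Prm3 turned to -0.067 with repeated quantile normalization and ran from -0.013 to 0.099 without single arrays. The cause was not tested.

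Replicate numbers are shared by TG3 and nonTG3. Deviations from the group means correlated at -0.45, 0.02 and -0.40 between arrays of the same number. Deviations from a mean of so few arrays depend on each other, so these values cannot show whether the numbers pair the pools. With the replicate number as a block 0 members and 0 of all 23493 probe sets were called, with 2 residual degrees of freedom. The Tnp1 difference of -0.32 cannot change there, because each number holds an array of TG3 and an array of nonTG3. The recount of the gene lists under these settings was added after seeing the data, and it gave 0 called lower in each list without both low-mitochondrial arrays. That fit called 0 of all 23493 probe sets. Whether dim values lie above background was not measured.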
